A study of Mus musculus with 4 samples.

Results

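The matricellular proteins are secreted proteins that sit in the extracellular matrix but act mainly on cells, and 10 of their genes were followed here by symbol out of the 32285 genes in each count table, the same list in every library: the tenascins Tnc and Tnn, Postn, Sparc, the thrombospondins Thbs1, Thbs2, Thbs3, Thbs4 and Comp, and Cthrc1. Every symbol matched a single row. The tables came from 4 single-cell RNA libraries of mouse tibial muscle on the 10x Genomics platform. All mice were C57BL/6, 6 to 8 weeks old, and carried Nse-Bmp4, in which a rat neuron specific enolase promoter drives a Bmp4 cDNA. These mice form bone in injured soft tissue, which is called heterotopic ossification (HO). The library labelled HO-day 0 was taken as muscle without injury (Uninjured), because the protocol lists uninjured muscle beside the injured times, and the other 3 came from muscle taken 1, 3 or 7 days after an injection of cardiotoxin, a toxin that kills muscle fibers. These are written as 1, 3 and 7 dpi. The uninjured library also carried the transgene, so no library stood for wild-type muscle. Each library pooled 3 tibial muscles and no time point was repeated. No test between time points was therefore possible, and the 95% intervals below cover counting error only.

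Matricellular proteins are known to be scarce in most resting adult tissues and to appear during development and repair. Tenascins, periostin and the thrombospondins bind integrins and collagens and alter how cells hold on to the matrix, while thrombospondin-1 also binds CD47 and CD36 and can release active TGF-β from its latent complex. Thrombospondin-1 and -2 form trimers, and thrombospondin-3, -4 and COMP form pentamers typical of tendon and cartilage.

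Cells were assigned to classes by distinct marker genes with a unique molecular identifier (UMI, 1 counted transcript), and no member was a marker. The deposited libraries held 11722 to 23752 cells and 91146335 to 129007669 UMIs, and pairs of libraries shared 30 to 95 cell barcodes. After filtering, 75.0 to 93.9% of cells were assigned. Mesenchymal cells, the lineage of fibroblasts and their progenitors, numbered 8319 in Uninjured, 3723 at 1 dpi, 5908 at 3 dpi and 9942 at 7 dpi, and 4628 chondrocyte-like cells were found at 7 dpi. Levels are given as CPM, UMIs scaled to a total of 1000000 UMIs for the class. The mesenchymal marker list summed to 2874 to 3765 CPM in mesenchymal cells and to 32.0 to 181 CPM in B cells, NK/T cells, monocytes/macrophages and neutrophils. Mural cells at 7 dpi, however, held 2566 CPM of that list, and the unassigned cells of that library held 2024 CPM. Median depth in mesenchymal cells fell from 9185 UMIs in Uninjured to 3537 UMIs at 7 dpi, so shares of cells with a UMI are given after thinning each cell to 1000 UMIs. B cells, which should lack most members, served as a guide to free RNA in the droplets. Their median depth at 7 dpi was 1452 UMIs, so equal CPM did not mean equal UMIs per cell.

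Most members were highest in mesenchymal or chondrocyte-like cells, and most rose after injury. Of the 40 pairs of a member and a library, 34 had their highest level in mesenchymal or chondrocyte-like cells. No share over all genes is given for this count, so it describes the members and does not set them apart from other genes. The other 6 were Thbs1 in neutrophils in all 4 libraries and Postn in Schwann cells in Uninjured and at 1 dpi. Among the 34, intervals overlapped those of the second class for Tnc, Tnn and Cthrc1 in Uninjured. They also overlapped for Tnn, Thbs2 and Cthrc1 at 1 dpi and for Comp at 3 dpi. Thbs2 at 1 dpi was 95.6 CPM, against 92.8 CPM in myogenic cells. Classes with fewer than 50 cells, such as the 22 endothelial cells of Uninjured, were not compared. A difference between time points was counted when it was at least 2-fold with at least 100 UMIs in the higher library.

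From Uninjured to 1 dpi, the mesenchymal members went both ways. Tnn and Thbs1 were past 2-fold higher, against 5.7% of the 12200 genes with enough UMIs, and Postn and Sparc were past 2-fold lower, against 3.61% of them. From 1 to 3 dpi, 7 of 10 members were past 2-fold higher (Tnc, Tnn, Postn, Thbs2, Thbs4, Comp and Cthrc1) and none lower, against backgrounds of 5.32% higher and 4.21% lower. From 3 to 7 dpi, 6 of 10 were again past 2-fold higher (Tnc, Tnn, Postn, Thbs2, Comp and Cthrc1) and none lower, against 7.72% and 6.14%. Comparing 7 dpi with Uninjured, 8 of 10 were past 2-fold higher against 13.6% of genes, and none were lower against 10.5%. The members outside that count were Sparc and Thbs3. The median log2 ratio of the members in this last comparison was 2.92, beside 0.03 for all genes with enough UMIs.

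**Figure D1:**
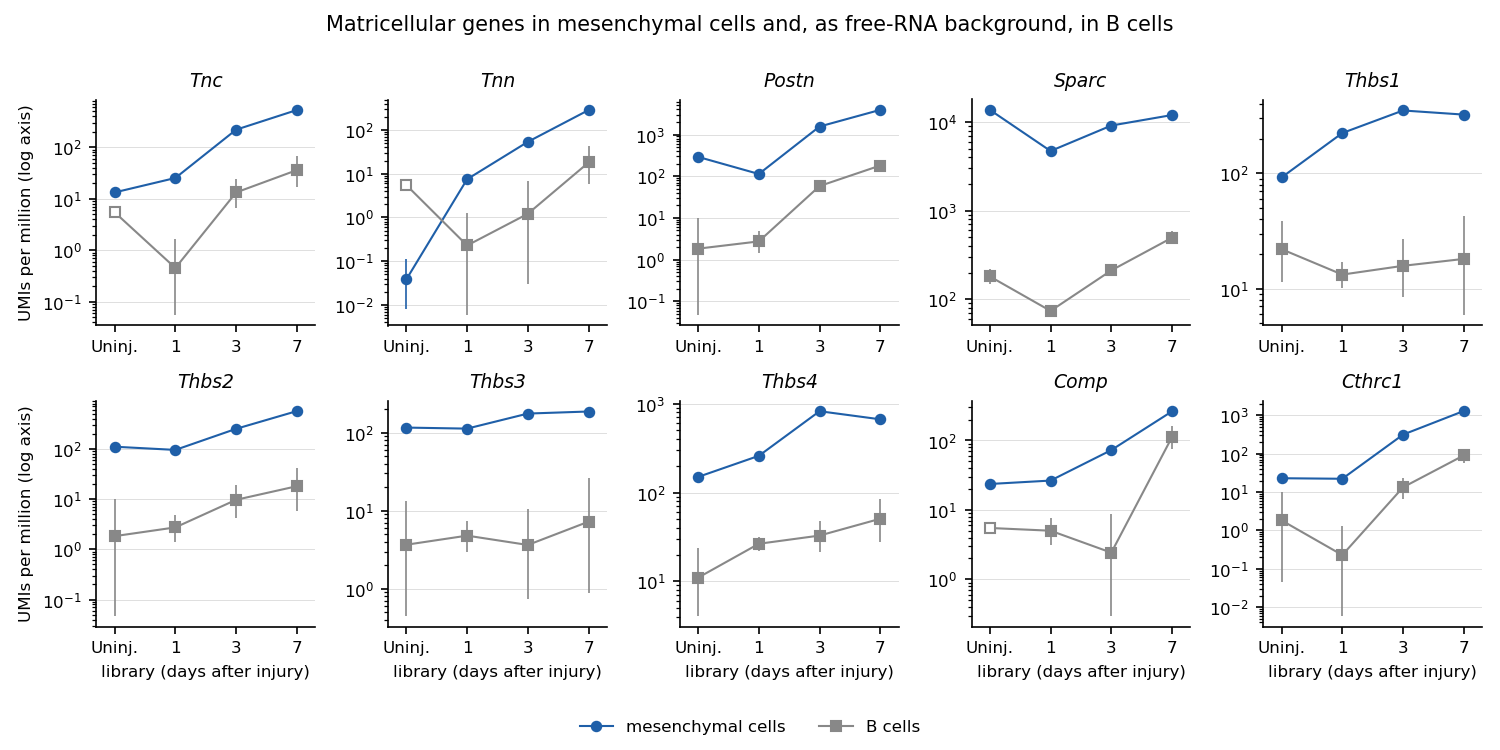
CPM (log axis, a separate scale in each panel) of the 10 members in mesenchymal cells (blue circles) and B cells (grey squares) of the 4 libraries. Bars are exact Poisson 95% intervals, often smaller than the symbols, and open symbols mark classes with no UMI, placed at 3 UMIs. Tnc, Tnn, Postn, Thbs2, Comp and Cthrc1 climb from 1 to 7 dpi, while Sparc is lowest at 1 dpi and Thbs3 stays within 112 to 186 CPM. In B cells at 1 dpi, 104 of the 116 Thbs4 UMIs came from 1 cell, without which the level was 2.74 CPM.

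Among the tenascins, Tnc (ENSMUSG00000028364, chr4:63959785-64047015, minus strand, GRCm38) encodes tenascin-C, a large multi-armed glycoprotein of tendon and healing tissue. Mesenchymal cells held 13.4 CPM of Tnc in Uninjured, 25.5 at 1 dpi, 220.4 at 3 dpi and 531 at 7 dpi. The 7 dpi level was 39.7-fold that of Uninjured (95% interval 37.3 to 42.3), and the steepest step was from 1 to 3 dpi, at 8.65-fold (8.08 to 9.27). The share of thinned mesenchymal cells with a Tnc UMI was 0.649% in Uninjured and 34.1% at 7 dpi (2.58% and 62.9% without thinning), beside 3.23% of B cells at 7 dpi. The 1 dpi to Uninjured ratio of 1.91 (1.74 to 2.09) lay just under the 2-fold limit. Before injury, Tnc was held by few cells: 215 of 8319 mesenchymal cells had a UMI, and the 49 tenocyte-like cells, a subclass with at least 2 of Tnmd, Scx, Mkx and Kera, held 30.2% of the UMIs. By 7 dpi that subclass held 5.68% of them, and its own level was 633 CPM in Uninjured and 578 CPM at 7 dpi. In Pi16 adventitial-like cells, the fibroblasts that in many tissues surround vessels, Tnc went from 1.34 to 203 CPM, and in Smoc2 Col15a1 interstitial-like cells from 11.6 to 379.8 CPM.

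Tnn (ENSMUSG00000026725, chr1:160085029-160153580, minus strand) encodes tenascin-W, a tenascin of periosteum and bone-forming tissue. It was barely detected before injury, with 3 UMIs among 8319 mesenchymal cells, or 0.0382 CPM. Its mesenchymal level was then 7.49 CPM at 1 dpi, 53.8 at 3 dpi and 287 at 7 dpi. The 1 dpi level was 196-fold that of Uninjured, with an interval of 66.3 to 956 set by those 3 UMIs, and it rested on 9 cells with 262 UMIs, of which 149 came from 1 cell. With cells thinned to 1000 UMIs the ratio was 38.0, with fewer than 100 UMIs at 1 dpi. Without that cell the level was 3.23 CPM, and none of the 9 barcodes occurred in another library. After thinning, 0.161% of mesenchymal cells (0.0593 to 0.351) and 0.0760% of B cells (0.00192 to 0.423) had a Tnn UMI at 1 dpi, so the 2 intervals overlapped. At 7 dpi the shares were 21.9% and 2.58% (46.8% and 3.01% without thinning), and the level was 5.33-fold that of 3 dpi (5.13 to 5.55). The cell that led at 1 dpi belonged to the Lrrc15 Runx2 subclass, mesenchymal cells with at least 2 of the osteogenic and stromal genes Lrrc15, Runx2, Alpl and Mmp13. This subclass also held the highest Tnn levels later, at 368 CPM in 34 cells at 3 dpi and 515 CPM in 1264 cells at 7 dpi. Other cells of the same 7 dpi library also held Tnn, at 307 CPM in chondrocyte-like cells, 305 CPM in cells of no subclass and 297 CPM in tenocyte-like cells. Interstitial-like cells held 150 CPM, 3.43-fold less than the Lrrc15 Runx2 subclass (3.25 to 3.62), and Pi16 adventitial-like cells held 103 CPM.

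At 3 dpi several members were higher in cycling cells. No share over all genes is given for this comparison, so the ratios describe the members only. Cycling mesenchymal cells, the 1005 of 5908 with at least 2 of 6 mitotic genes, held 120 CPM of Tnn against 20.7 CPM in the other mesenchymal cells, a ratio of 5.78 (5.32 to 6.29). For Tnc the ratio was 2.39 (2.30 to 2.48), and for Cthrc1 it was 2.13 (2.07 to 2.20). Thbs2 followed at 1.79 (1.73 to 1.85) and Postn at 1.68 (1.65 to 1.70), while Sparc, Thbs1, Thbs3 and Thbs4 lay between 0.794 and 0.996. Comp went the other way and was 4.49-fold lower in cycling cells (4.05 to 4.99). At 7 dpi these gaps were smaller, at 1.17 for Tnn, 1.30 for Tnc and 0.953 for Cthrc1.

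Postn (ENSMUSG00000027750, chr3:54361109-54391037, plus strand) encodes periostin, a fasciclin-domain protein of periosteum and scar that helps collagen cross-linking. In mesenchymal cells it was 291 CPM in Uninjured, fell to 113 CPM at 1 dpi, and reached 1558 CPM at 3 dpi and 3914 CPM at 7 dpi. The drop at 1 dpi was 2.57-fold (2.49 to 2.66), and the climb to 3 dpi was 13.8-fold (13.3 to 14.2). The drop was uneven among subclasses. Pi16 adventitial-like cells, which held 522 CPM in Uninjured, were 4.84-fold lower at 1 dpi (4.55 to 5.16), whereas Smoc2 Col15a1 interstitial-like cells, which held 81.9 CPM, were 1.32-fold lower (1.23 to 1.42). By 7 dpi the 6 subclasses were close, from 3432 to 4374 CPM. Cells in no subclass were 10.7% of mesenchymal cells in Uninjured and 52.0% at 7 dpi, where cells were shallower. Comparisons of subclasses between these libraries therefore leave out more of the mesenchymal cells at 7 dpi. Smoc2, which marks the interstitial-like subclass, was also 6.33-fold lower in mesenchymal cells at 7 dpi than in Uninjured. The parts of depth and of marker levels in the cells without a subclass were not tested. Thinned shares of mesenchymal cells with a Postn UMI were 15.8, 3.93, 37.1 and 88.4% in time order, beside 0, 0.228, 5.45 and 19.4% of B cells. The 0 of 192 B cells allows up to 1.90%. Without thinning the mesenchymal shares were 35.9, 13.0, 56.9 and 96.1%. Schwann cells, the glia of peripheral nerve, held more Postn than mesenchymal cells in Uninjured and at 1 dpi, at 412 and 647 CPM, and reached 987 and 1021 CPM at 3 and 7 dpi. Their 7 dpi level was 2.48-fold that of Uninjured (2.16 to 2.85), against a background of 2.13% of genes in Schwann cells.

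Sparc (ENSMUSG00000018593, chr11:55394500-55423183, minus strand) encodes osteonectin, a calcium- and collagen-binding protein abundant in bone. Its mesenchymal level was 13683 CPM in Uninjured, 4702 at 1 dpi, 9101 at 3 dpi and 11961 at 7 dpi. It was thus 2.91-fold lower at 1 dpi (2.90 to 2.93) and within 1.14-fold of Uninjured at 7 dpi (1.14 to 1.15). The 3 dpi to 1 dpi ratio of 1.94 (1.93 to 1.95) lay just under 2-fold. Nearly every mesenchymal cell had a UMI at each time, from 95.6 to 99.9% after thinning. Sparc was also the member with the widest spread over other classes: at 7 dpi, Schwann, mural and endothelial cells held 5654, 6566 and 5163 CPM, and myogenic cells held 1972 CPM. B cells held 496 CPM and NK/T cells 424 CPM in the same library. Monocytes/macrophages held 42.4 to 348 CPM over the 4 libraries, below the 74.1 to 496 CPM of B cells in each of them.

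The members past 2-fold higher in mesenchymal cells at both later steps (Tnc, Tnn, Postn, Thbs2, Comp and Cthrc1) were compared in the bases before their starts. Of the 10 members, 7 had an entry among the promoter sequences of RefSeq (GRCm38.p6). Thbs1, Comp and Cthrc1 had none. The 250 bases before the start are printed for the 4 that moved together and had an entry, on the gene's own strand from 5′ to 3′, because they are the stretches in which a shared element of these genes would be sought first. They lie at chr4:64047016-64047265 (Tnc), chr1:160153576-160153825 (Tnn), chr3:54360857-54361106 (Postn) and chr17:14694263-14694512 (Thbs2), and capitals mark every match to a searched motif on either strand.
Tnc: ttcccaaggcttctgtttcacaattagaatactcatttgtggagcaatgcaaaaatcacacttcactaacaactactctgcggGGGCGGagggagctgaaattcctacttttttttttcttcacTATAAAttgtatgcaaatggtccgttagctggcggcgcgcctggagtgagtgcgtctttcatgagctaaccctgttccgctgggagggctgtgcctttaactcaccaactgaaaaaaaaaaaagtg
Tnn: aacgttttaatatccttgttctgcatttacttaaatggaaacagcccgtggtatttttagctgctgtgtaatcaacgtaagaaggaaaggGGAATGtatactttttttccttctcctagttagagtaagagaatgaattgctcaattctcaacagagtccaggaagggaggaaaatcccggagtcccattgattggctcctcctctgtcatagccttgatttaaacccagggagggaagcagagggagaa
Postn: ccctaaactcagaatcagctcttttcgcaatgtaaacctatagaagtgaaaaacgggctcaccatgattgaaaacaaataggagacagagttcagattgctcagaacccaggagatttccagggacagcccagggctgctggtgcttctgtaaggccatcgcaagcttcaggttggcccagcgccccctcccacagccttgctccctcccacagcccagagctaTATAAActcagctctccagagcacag
Thbs2: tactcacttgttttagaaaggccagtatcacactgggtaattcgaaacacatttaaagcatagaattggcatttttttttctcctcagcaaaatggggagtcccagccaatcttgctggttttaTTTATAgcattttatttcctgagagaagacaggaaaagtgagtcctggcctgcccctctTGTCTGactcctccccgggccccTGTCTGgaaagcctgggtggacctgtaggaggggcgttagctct

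A set of 6 motifs was searched on both strands. The TATA box, spelled TATAAA, was present before Tnc, 126 bases from the start, before Postn, 26 bases from it, and before Thbs2 on the opposite strand, while 12.4% of 32851 RefSeq promoters of this length held it. The Tnc stretch also held the GC box, spelled GGGCGG, as did 32.7% of promoters. The Tnn stretch held the TEAD motif, spelled GGAATG, as did 12.6% of promoters. Thbs2 had 2 matches on the opposite strand to the SMAD motif, spelled CAGACA, which occurred in 17.1% of promoters. None of the 4 stretches held the AP-1 motif, spelled TGANTCA and present in 6.75% of promoters. The same was true of the RUNX motif, spelled AACCACA and present in 4.40% of promoters. No matches overlapped, no motif was common to all 4 stretches, and a match describes letters only.

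**Figure D2:**
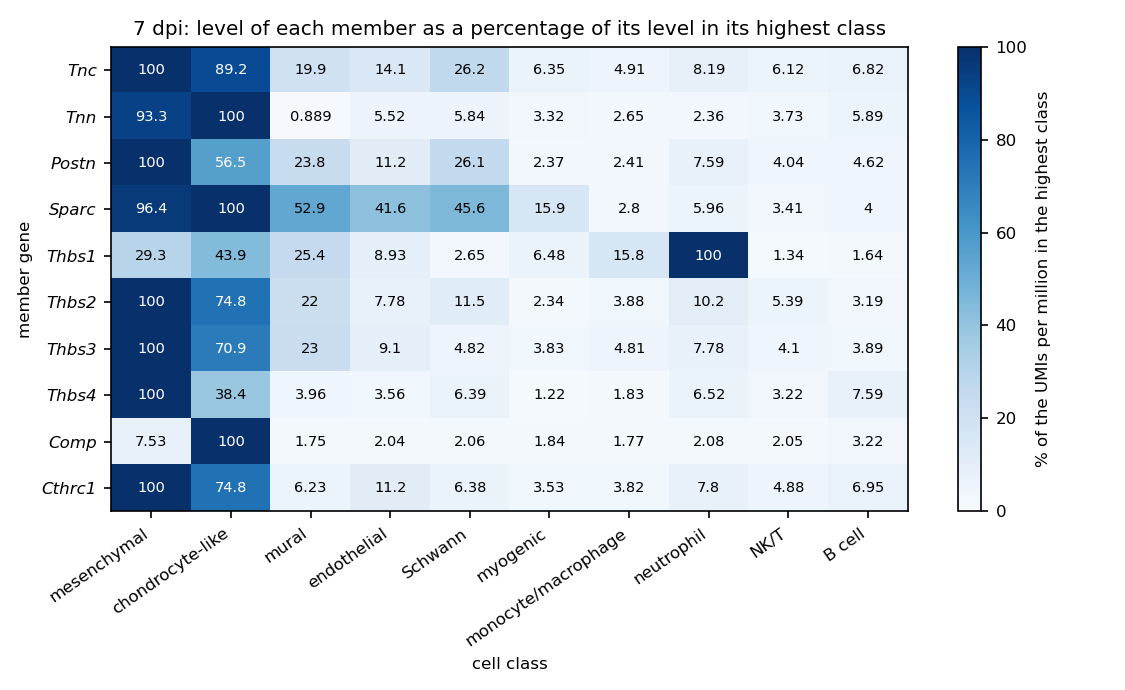
Level of each member (rows) in each cell class (columns) at 7 dpi, as a percentage of its CPM in its highest class, so colors compare classes within a gene and not genes with each other. Comp stands out in chondrocyte-like cells, with 7.53% of that level in mesenchymal cells, and Thbs1 in neutrophils, while B cells hold 1.64 to 7.59% of the highest level.

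The thrombospondins split into different cell patterns. Thbs1 (ENSMUSG00000040152, chr2:118111876-118127133, plus strand) encodes thrombospondin-1, the member that platelets also store and release. Neutrophils held its highest level in each library, at 613 CPM in Uninjured, 2259.7 at 1 dpi, 1769 at 3 dpi and 1101 at 7 dpi. Monocytes/macrophages held 375, 876, 765 and 174 CPM in the same order. Both classes thus stood highest at 1 dpi and lower afterwards, and in monocytes/macrophages the 7 dpi level was 2.16-fold below Uninjured (1.86 to 2.53), where 1.32% of genes were past 2-fold lower. From Uninjured to 1 dpi, Thbs1 was 3.69-fold higher in neutrophils (3.14 to 4.36) and 2.34-fold higher in monocytes/macrophages (2.18 to 2.51). In each class it was 1 of only 2 members with enough UMIs, the other being Sparc, and the 1 of them past 2-fold higher, where 24.9% of genes in neutrophils and 15.5% in monocytes/macrophages were. A rise past 2-fold was thus common among genes of these cells, and shares at higher folds are not given. The neutrophil sums held 247874 UMIs in Uninjured and 3012341 at 1 dpi, so the neutrophil share rests on a shallow Uninjured sum. Sparc was past 2-fold lower in monocytes/macrophages, against 2.66% of genes, at the levels below B cells given above. In the same comparison Sparc was also past 2-fold lower in NK/T cells and in B cells, from 181 to 74.1 CPM in the latter. Uninjured neutrophils were 52 cells with 152 Thbs1 UMIs. The monocyte/macrophage ratio dropped to 1.98 with a stricter gate and to 1.90 with thinned cells, both under 2-fold.

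Platelets carry Thbs1, so the platelet markers are given beside these values. Of the 6 platelet markers, 0 to 3 had a UMI in monocytes/macrophages and 1 to 2 in neutrophils. Their sum was 0 to 3.53 CPM in monocytes/macrophages and 3.28 to 8.07 CPM in neutrophils, below the 10.7 to 16.5 CPM of mesenchymal cells. NK/T cells held 0.932 to 1.98 CPM and B cells 0 to 3.62 CPM. Neutrophils thus lay above NK/T cells in each library, but on few UMIs. They had 2, 18, 3 and 1 UMIs of the list in time order, beside 3, 8, 4 and 2 in NK/T cells. Without the cells that had any UMI of that list, Thbs1 in monocytes/macrophages was 375, 877, 766 and 174 CPM and in neutrophils 631, 2304, 1836 and 1109 CPM. The part of platelet RNA in the Thbs1 levels was not tested beyond these values.

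In mesenchymal cells Thbs1 was 92.1 CPM in Uninjured, 224 at 1 dpi, 351 at 3 dpi and 323 at 7 dpi. It was the only member other than Tnn past 2-fold higher at 1 dpi, at 2.43-fold (2.35 to 2.51), and it changed little from 3 to 7 dpi. Interstitial-like cells held 154 CPM in Uninjured against 16.6 CPM in Pi16 adventitial-like cells, a 9.27-fold gap (8.46 to 10.2) that narrowed to 1.31-fold at 7 dpi (1.23 to 1.39). The classes that supplied Thbs1 UMIs changed with time. At 1 dpi monocytes/macrophages held 40.2% of all Thbs1 UMIs, mesenchymal cells 28.1% and neutrophils 24.5%, and at 7 dpi mesenchymal cells held 53.8% and chondrocyte-like cells 35.4%. These shares also follow how many cells of each class were recovered. B cells held 13.2 to 22.0 CPM in the 4 libraries, and NK/T cells held 1.32 to 14.8 CPM. The 22.0 CPM of B cells in Uninjured was 12 UMIs, of which 9 came from 1 cell. Without that cell the level was 5.62 CPM.

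**Figure D3:**
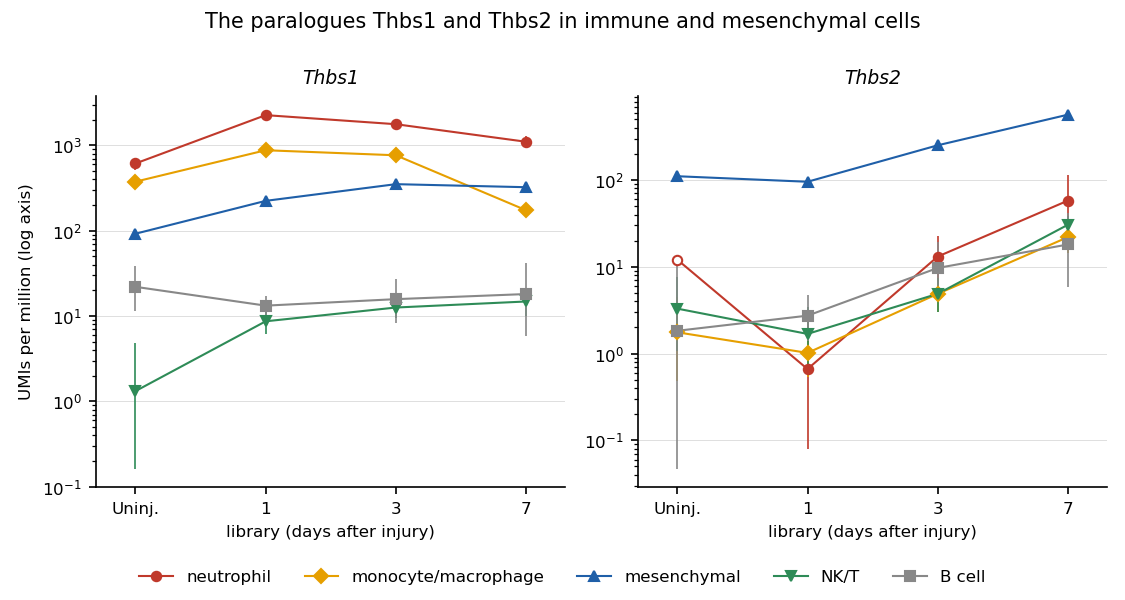
CPM (log axis) of Thbs1 (left) and Thbs2 (right) in neutrophils, monocytes/macrophages, mesenchymal cells, NK/T cells and B cells of the 4 libraries, with exact Poisson 95% intervals and an open symbol at 3 UMIs where none were counted. Thbs1 is highest in neutrophils at every time and Thbs2 in mesenchymal cells.

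Thbs2 (ENSMUSG00000023885, chr17:14665500-14694235, minus strand) encodes thrombospondin-2, the closest relative of Thbs1, which lacks the sequence that activates TGF-β. It followed the mesenchymal pattern, with 111, 95.6, 252 and 567 CPM in time order, 5.12-fold higher at 7 dpi than in Uninjured (5.00 to 5.25). Neutrophils and monocytes/macrophages held 0 to 58.0 CPM, beside 1.83 to 18.1 CPM in B cells. Thinned shares of mesenchymal cells with a UMI went from 8.72% in Uninjured to 39.2% at 7 dpi (41.6% and 72.5% without thinning), beside 1.29% of B cells at 7 dpi. Thbs3 (ENSMUSG00000028047, chr3:89215180-89226837, plus strand), a pentameric thrombospondin of developing cartilage, had the narrowest range of the 10 members over the 4 libraries. Its mesenchymal levels were 116, 112, 175 and 186 CPM, and the 7 dpi level was 1.61-fold that of Uninjured (1.56 to 1.65).

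Thbs4 (ENSMUSG00000021702, chr13:92751590-92794818, minus strand) encodes thrombospondin-4, a tendon and muscle attachment protein. Across mesenchymal cells it was 149.8 CPM in Uninjured, 259 at 1 dpi, 823 at 3 dpi and 667 at 7 dpi. The 7 dpi level was 4.46-fold that of Uninjured (4.36 to 4.55), and it was 1.23-fold lower at 7 than at 3 dpi (1.22 to 1.25). Comp (ENSMUSG00000031849, chr8:70373558-70382066, plus strand) encodes cartilage oligomeric matrix protein, which binds collagen fibrils in tendon and cartilage. Across mesenchymal cells it was 23.6, 26.5, 72.7 and 263 CPM, 11.1-fold higher at 7 dpi than in Uninjured (10.6 to 11.7).

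Within mesenchymal cells, Thbs4 and Comp had their highest subclass level in tenocyte-like cells before injury. The 49 tenocyte-like cells of Uninjured were 0.589% of mesenchymal cells and held 33.4% of Thbs4 UMIs and 47.7% of Comp UMIs. The interstitial-like cells, 50.8% of mesenchymal cells, held 42.8% of Thbs4 UMIs and 9.60% of Comp UMIs. The Thbs4 level of tenocyte-like cells was 7874 CPM in Uninjured, 15088 in 17 cells at 1 dpi, 13515 in 54 cells at 3 dpi and 1718 in 433 cells at 7 dpi. The Comp level of tenocyte-like cells was 1774, 2205, 1478 and 425 CPM. Both were lower at 7 dpi than in Uninjured in these cells, by 4.58-fold for Thbs4 (4.39 to 4.78) and 4.18-fold for Comp (3.83 to 4.56). With Sparc they made 3 of 10 members past 2-fold lower, against 5.12% of genes with enough UMIs in tenocyte-like cells. The 4 members past 2-fold higher there were Tnn, Postn, Thbs3 and Cthrc1, against 11.9%. From 3 to 7 dpi, Thbs4 and Comp were past 2-fold lower in tenocyte-like cells against 4.85% of genes, and Tnn, Postn and Cthrc1 higher against 11.6%. From 1 to 3 dpi, Tnc and Thbs2 were past 2-fold lower against 5.35%, and Cthrc1 higher against 15.5%. Tendon markers of this subclass also differed, with Tnmd at 3777 CPM in Uninjured and 1784 CPM at 7 dpi, and Kera at 1421 and 295 CPM. Both are genes of its gate. The tendon proteoglycan gene Fmod was at 8267 and 1550.04 CPM. Lrrc15, a marker of the Lrrc15 Runx2 subclass, was at 0 CPM in Uninjured and 151 CPM at 7 dpi. Whether the 433 cells at 7 dpi were the same kind of cell as the 49 before injury was not tested.

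In the 2 largest subclasses of Uninjured, Thbs4 and Comp were higher at 7 dpi, opposite to tenocyte-like cells, while Tnn, Postn and Cthrc1 were past 2-fold higher in all 3. Comparing 7 dpi with Uninjured, 8 of 10 members were past 2-fold higher in Pi16 adventitial-like cells and 8 of 10 in Smoc2 Col15a1 interstitial-like cells, against 7.11% and 7.61% of genes, and none were lower, against 7.55% and 7.81%. The sets differed: Thbs1 was past 2-fold higher in the former only and Thbs3 in the latter only, and Sparc in neither. Pi16 adventitial-like cells held 19.2 CPM of Thbs4 in Uninjured and 713 CPM at 7 dpi, a 37.1-fold rise (34.0 to 40.5), and 3.51 and 112 CPM of Comp. B cells of the 7 dpi library also held 112 CPM of Comp (76.2 to 159), the same as Pi16 adventitial-like cells, where Comp is 1 of their 8. Those levels were 778 UMIs in 925 Pi16 adventitial-like cells and 31 UMIs in 166 B cells. B cells were shallower, with a median of 1452 UMIs against 3537 in mesenchymal cells, so UMIs per cell were not equal. The part of free RNA in this Comp level was not tested. Interstitial-like cells held 134 and 787 CPM of Thbs4, and 4.74 and 221 CPM of Comp. Without the tenocyte-like cells, mesenchymal Thbs4 was 100.3, 209, 679 and 609 CPM and Comp was 12.4, 19.1, 56.7 and 254 CPM, beside 50.7 CPM of Thbs4 and 112 CPM of Comp in B cells at 7 dpi. Without them Thbs4 and Tnc were also past 2-fold higher at 1 dpi, at 2.08 and 2.47.

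**Figure D4:**
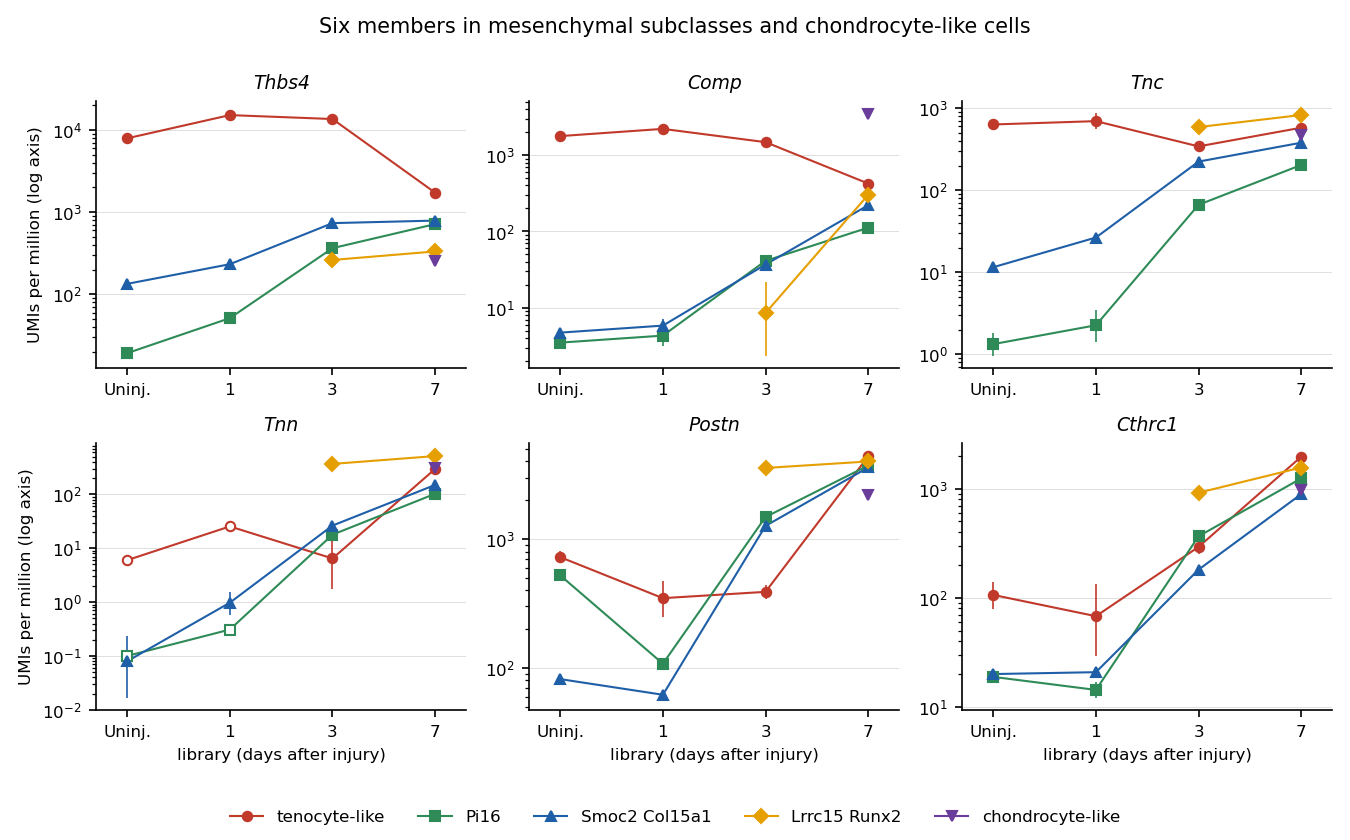
CPM (log axis) of 6 members in 4 mesenchymal subclasses and in chondrocyte-like cells (found at 7 dpi), with exact Poisson 95% intervals and open symbols at 3 UMIs where none were counted. The tenocyte-like line falls to 1718 CPM for Thbs4 and 425 CPM for Comp at 7 dpi while the Pi16 and Smoc2 Col15a1 lines rise, for Comp in Pi16 cells to the 112 CPM of B cells.

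Chondrocyte-like cells, with at least 4 of Col2a1, Acan, Col9a1, Col9a3, Hapln1 and Matn1, set Comp apart from the other members. Comp was 3489 CPM in them, 13.3-fold the mesenchymal level of the same library (13.0 to 13.5), and 82.4% of all Comp UMIs at 7 dpi were theirs. It was also higher in the 833 chondrocyte-like cells with at least 2 UMIs of Col10a1, the collagen of hypertrophic cartilage, at 6042 CPM against 2963 CPM in the rest. Thbs4 was 2.60-fold lower in chondrocyte-like than in mesenchymal cells (2.54 to 2.68), and Postn was 1.77-fold lower (1.75 to 1.79). Of the remaining 7 members, Thbs3 was lower by the most, at 1.41-fold (1.36 to 1.47), and Thbs1 was higher by the most, at 483 CPM against 323 CPM. At 7 dpi B cells held 112 CPM of Comp and NK/T cells 71.6 CPM. Neither class had a Comp UMI in Uninjured, among 192 B cells and 378 NK/T cells. Whether the Comp UMIs of these classes were free RNA was not tested. The mesenchymal level of 263 CPM at 7 dpi was 2.34-fold that of B cells (1.65 to 3.45), the smallest such gap among the 10 members in that library. In UMIs, these were 14863 in 9942 mesenchymal cells and 31 in 166 of the shallower B cells.

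Cthrc1 (ENSMUSG00000054196, chr15:39076932-39087121, plus strand) encodes a secreted protein of activated fibroblasts that binds Wnt receptors of the planar polarity pathway. It was flat at first in mesenchymal cells, with 23.0 CPM in Uninjured and 22.2 at 1 dpi, a ratio of 0.968 (0.889 to 1.05). It then reached 315 CPM at 3 dpi and 1301 CPM at 7 dpi, 56.6-fold above Uninjured (54.1 to 59.4). The thinned share of cells with a UMI went from 1.33% in Uninjured to 61.1% at 7 dpi (84.4% at 7 dpi without thinning), beside 7.10% of B cells at 7 dpi. All 6 subclasses held Cthrc1 at 7 dpi, from 879 CPM in C7 Gdf10 cells to 1960.3 CPM in tenocyte-like cells. Chondrocyte-like cells held 973 CPM.

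Detection of pairs of members in the same mesenchymal cell was compared with the number that independence would give. A ratio of the 2 cannot exceed the inverse of the larger share of cells, so with Postn in 88.4% of thinned cells and Sparc in nearly all, their ratios at 7 dpi were held close to 1, and ratios of different libraries are not set against each other. In the 5766 cells of 3 dpi with at least 1000 UMIs, Tnc and Tnn were both detected in 42 where independence would give 11.7, a ratio of 3.58. The ratio was 3.24 for Tnn with Cthrc1, 2.57 for Tnc with Cthrc1, 2.56 for Tnc with Thbs4 and 2.47 for Tnn with Thbs2. It was 2.33 for Tnn with Postn, 2.14 for Thbs4 with Comp and 2.08 for Postn with Cthrc1. In Uninjured, Tnc and Comp were found together in 15 cells (ratio 29.6) and Tnc and Thbs4 in 38 (16.0). Tnc and Cthrc1 were found together in 10 (13.9) and Thbs4 and Comp in 42 (12.2). In the 9346 mesenchymal cells of 7 dpi with at least 1000 UMIs, Tnc and Tnn were both detected in 984 thinned cells where independence would give 697, a ratio of 1.41. The ratio was 1.21 for Tnn with Thbs2 and 1.18 for Tnc with Thbs2, and all other pairs lay between 0.941 and 1.17. These are descriptions, since the cells come from 1 library and share its subclasses and depth.

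The genes whose levels most resembled each member were found over 36 class and library sums from 12 classes, by Pearson correlation of log2(CPM + 10). These sums share libraries and may share free RNA, so the correlations describe and do not test. Tnc was closest to Cthrc1 (0.94) and to the collagen gene Col12a1 (0.93). Tnn was closest to Tnfrsf11b, the gene of the decoy receptor osteoprotegerin (0.94), and to Lrrc15 (0.93), a marker of the Lrrc15 Runx2 subclass. Postn was closest to Col16a1 (0.95), Col1a2 (0.93) and Col1a1 (0.91). Comp was closest to Ibsp, the gene of bone sialoprotein (0.94), and to Acan (0.92), which is itself a marker of the chondrocyte-like gate. Thbs4 was closest to Hhipl1 (0.93) and Pappa (0.92), and Thbs2 to Efemp2 (0.95). Thbs3 was closest to Ccdc80 (0.96) and Pcolce (0.96), the latter the enhancer of procollagen processing, and Sparc to Cavin3 (0.96). Thbs1 stood apart, with weaker correlations to Tnfaip2 (0.85), Prdx5 (0.85) and Ptgs2 (0.83), the gene of the inducible cyclooxygenase.

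Not all relatives of these genes rose. Of 11 other matricellular genes, 9 had enough UMIs in mesenchymal cells for the comparison of 7 dpi with Uninjured, and 2 were past 2-fold higher, Spp1 and Smoc1, beside 13.6% of all genes. Spp1, which encodes osteopontin, went from 3.03 to 143 CPM, 47.1-fold (41.4 to 53.9), and Smoc1, which encodes a Sparc relative, from 1.49 to 20.5 CPM, 13.8-fold (11.4 to 16.8). B cells at 7 dpi held 21.7 CPM of Spp1 (7.97 to 47.3) and 3.62 CPM of Smoc1 (0.0916 to 20.2). The 4 past 2-fold lower were Tnxb, Sparcl1, Smoc2 and Spock2, beside 10.5% of all genes. Tnxb, the tenascin of resting connective tissue, went from 933 to 171 CPM, 5.44-fold lower (5.33 to 5.56), and Sparcl1 from 260.4 to 73.0 CPM, 3.57-fold lower (3.45 to 3.69). Smoc2 marks the interstitial-like subclass and was 6.33-fold lower (6.24 to 6.43).

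Of 16 receptors and binding partners, 15 had enough UMIs in that comparison, with 4 past 2-fold higher and 4 lower, beside 13.6% and 10.5% of all genes. The higher ones were Calr (2.32-fold), whose product calreticulin binds thrombospondin-1 at the cell surface, the Cthrc1 partners Ror2 (2.19-fold) and Fzd6 (14.5-fold, from 32 to 334 UMIs), and Stab1 (2.13-fold), whose product takes up Sparc. The lower ones were Cd47 (2.24-fold), the thrombospondin-1 receptor, the integrin subunits Itga8 (2.63-fold) and Itga9 (2.56-fold), and the collagen receptor Ddr2 (2.09-fold). Cd47 was 496 CPM in Uninjured and 222 CPM at 7 dpi. B cells at 7 dpi had no UMI of Stab1, Fzd6 or Ror2, which allows up to 13.4 CPM of each. The mesenchymal levels of Stab1 (3.29 CPM) and Fzd6 (5.91 CPM) at 7 dpi lay below that limit, and Ror2 (26.8 CPM) lay above it. The part of free RNA in these levels was not tested. At 1 dpi the syndecan gene Sdc4 was 2.40-fold higher (2.32 to 2.47), and it was 3.03-fold lower at 7 than at 3 dpi (2.93 to 3.13).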

How the data were processed

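Libraries were made on the 10x Genomics platform from collagenase-digested tibial muscle. Per the labels, the authors used Cell Ranger 5.0.0 with the STAR aligner, and the submitters' processing notes also name Seurat 3.1.1 and mm10. The deposited values are raw UMI counts per gene and cell, and the labels mention down-sampling of reads without stating whether it preceded these counts. Cells were kept within 2 SD of the library mean of log10 UMIs and log10 genes and at no more than 10% mitochondrial UMIs, and the top 7.5% by Scrublet score (Scanpy 1.11.5, seed 0) were removed as doublets in place of the study's DoubletFinder.

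A cell took the class whose 6 markers had the most genes with a UMI, at least 2 and at least 2 more than any other list. Chondrocyte-like cells needed at least 4 of 6 genes, with the same lead over lists other than mesenchymal, and came first, and mesenchymal subclasses needed 2 of 4 genes without a tie. UMIs were summed per class and library (at least 50 cells, or 10 for subclasses) and divided by all UMIs of that sum to give CPM. Intervals were exact Poisson for levels, Clopper-Pearson for shares of cells and conditional binomial for ratios (SciPy 1.17.1). A class with no UMI was placed at 3 UMIs. With 1 library per time point no test or p-value was computed, and intervals cover counting error, not differences between animals. By rule, every member was named. Related genes came from 2 lists and most-alike genes were ranked among genes with at least 500 UMIs. Gene positions are those of GENCODE M21, which matched 99.6% of the 32285 gene identifiers. For genes with several RefSeq promoter entries, the one nearest the GENCODE start was used. Scripts were tested on simulated data. The members, lists and alternatives were chosen with earlier results of these data known, and 4 alternatives were added after seeing the values.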

Additional observations from a re-analysis of the deposited data

Results flagged for a closer look

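Under the same contrast, 6 values in a smaller class were past 2-fold in the direction opposite to mesenchymal cells as a whole. The differences between classes were not tested, since each time point was 1 library. Comparing 7 dpi with Uninjured, Thbs1 had a log2 ratio of -1.11 in monocytes/macrophages and 1.81 in mesenchymal cells. In tenocyte-like cells the same comparison gave -2.20 for Thbs4 and -2.06 for Comp, beside 2.16 and 3.48 in all mesenchymal cells. Whether the tenocyte-like cells of these 2 libraries, 49 in Uninjured and 433 at 7 dpi, were the same kind of cell was not tested. Comparing 7 with 3 dpi, Comp was -1.80 in tenocyte-like cells and 1.85 in mesenchymal cells. Comparing 3 with 1 dpi, Tnc was -1.02 and Thbs2 -1.08 in tenocyte-like cells, beside 3.11 and 1.40 in mesenchymal cells. Those last values rest on 17 tenocyte-like cells at 1 dpi, with 82 Tnc UMIs and 148 Thbs2 UMIs.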

How the results depend on the processing

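Counts of members past 2-fold in mesenchymal cells were recomputed in 15 settings, of which 4 were chosen after seeing the data (without tenocyte-like cells, cycling cells, barcodes shared with another library, or the cell with the most UMIs of the member). In none of them did a member's mesenchymal ratio that was past 2-fold turn its direction. Of 375 such values, 374 stayed past 2-fold, the exception being Tnn at 1 dpi after thinning to 1000 UMIs, which left fewer than 100 UMIs and a 38.0-fold ratio in place of 196-fold. Another 6 became past 2-fold: Tnc at 1 dpi in 4 settings, with log2 ratios of 1.03 to 1.31, Thbs4 at 1 dpi without tenocyte-like cells (1.06), and Sparc from 1 to 3 dpi with TMM scaling (edgeR 4.0.16), at 1.03. TMM shifted log2 ratios of 1 dpi against Uninjured by -0.20 for every gene. The count in monocytes/macrophages and neutrophils at 1 dpi went from 3 to 1 when cells were thinned to 1000 UMIs. Thbs1 in neutrophils remained, and Thbs1 in monocytes/macrophages had a ratio of 1.90. Sparc in monocytes/macrophages, with 541 UMIs at 1 dpi before thinning, was also no longer counted. The causes were not tested. The pairs led by mesenchymal or chondrocyte-like cells went from 34 to 33 with a stricter gate. Leaving out a library was not possible, with 1 at each time point. Classes of few cells limit precision, since 17 to 54 tenocyte-like cells and 52 neutrophils carry the early values. No paired analysis was possible because each time point is a single library.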
